A study of Mus musculus with 8 samples.

Results

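The genes described here encode the MHC class II antigen presentation machinery and its master regulator: the chains H2-Aa, H2-Ab1 and H2-Eb1, the invariant chain Cd74, the peptide editors H2-DMa and H2-DMb1, and Ciita. They were chosen by symbol, 7 of the 22869 gene symbols in the count table, and each is represented by its transcript row with the highest mean count. All 7 passed the low-count filter, as did 16069 symbols in all. Cortical RNA was sequenced from APP/PS1 transgenic mice of the C57BL/6 strain, which develop amyloid plaques. Mice of the 4 bexarotene libraries received this retinoid X receptor agonist, at a dose and for a time that the labels do not state. The 4 vehicle libraries came from mice given glycerol at 0.2 mg/kg. Both groups carry the APP and PS1 transgenes, whose driving promoters the labels do not state, and the labels state neither the age and sex of the mice nor the number of animals behind a library.

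An MHC class II molecule is a pair of an alpha and a beta chain that displays peptides from engulfed protein to CD4 T cells. The chains assemble on the invariant chain Cd74, which blocks the peptide groove and directs the complex to endosomes, where proteases degrade it and the H2-DM heterodimer exchanges the last fragment for a peptide. Ciita is a coactivator that does not bind DNA itself. It docks on the RFX, CREB and NF-Y factors, which are bound to a conserved pair of promoter elements, the X and Y boxes. In the brain, class II is carried mainly by border macrophages, dendritic cells and a share of activated microglia, including those near plaques, and interferon gamma is the classical inducer of Ciita.

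Promoter windows were matched in RefSeq's table (build GRCm38.p6, 250 bases before to 50 after each start) for H2-Aa, H2-Eb1, H2-DMa and H2-DMb1, and not for H2-Ab1, Cd74 and Ciita. The stretches below are shown because they hold the X and Y box letters through which Ciita acts on these genes. Capitals mark GNAAC, the core letters of the first X box, and TGATTGG, the Y box, and each stretch runs 5′ to 3′ on the gene's strand and ends before the start site. The H2-Aa stretch lies at chr17:34287847-34287924 (minus strand), the H2-Eb1 stretch at chr17:34305756-34305832 and the H2-DMb1 stretch at chr17:34153077-34153154 (both plus strand).
H2-Aa: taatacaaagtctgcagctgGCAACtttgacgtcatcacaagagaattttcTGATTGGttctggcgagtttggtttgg
H2-Eb1: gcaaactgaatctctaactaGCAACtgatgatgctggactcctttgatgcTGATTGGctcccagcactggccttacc
H2-DMb1: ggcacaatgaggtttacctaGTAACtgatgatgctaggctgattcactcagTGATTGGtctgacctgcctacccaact

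Between the capitals lie 26 bases in H2-Aa, 25 in H2-Eb1 and 26 in H2-DMb1. The same arrangement, GNAAC followed after 15 to 35 bases by TGATTGG on the gene's strand, was found in 0.25% of all 32851 promoter windows (82 windows), and in 0.569% when either strand was allowed. GNAAC alone was in 84.8% of windows and TGATTGG alone in 7.82%, on either strand. The letters and the spacing were chosen with these promoters in view. Neither of the 2 windows of H2-DMa held the arrangement. Among further class II genes, the windows of H2-Oa, H2-Ob and H2-Eb2 held it, with 26, 23 and 25 bases between, and that of H2-DMb2 did not. These matches describe letters, and the count data hold no measure of binding at them.

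The libraries did not separate by treatment alone. On principal component 1 of log2 CPM (read counts normalised by each library's TMM-adjusted total of tested rows), odd-numbered replicates of either group (1 and 3) clustered together, opposite replicates 2 and 4. Xist had 248 and 307 CPM in vehicle replicates 1 and 3 and at most 0.861 CPM in vehicle replicates 2 and 4, and the Y-linked Ddx3y was the reverse (at most 0.212 CPM in replicates 1 and 3, 63.3 and 71.5 CPM in replicates 2 and 4). Every bexarotene library held both Xist (84.7 to 218 CPM) and Ddx3y (4.43 to 40.7 CPM). No vehicle library held both at such levels, so this make-up differed with treatment and cannot be told apart from it. The cortical marker Slc17a7, the vesicular glutamate transporter, had 1243 ± 234 CPM in bexarotene libraries and 1377 ± 120 CPM in vehicle libraries (SD, n = 4). Markers of striatum, which is not cortex, summed to 200 to 856 CPM in the bexarotene libraries and 176 to 465 CPM in the vehicle libraries. Total counts over all rows ran from 60106192 to 76542067 in bexarotene libraries and from 42413825 to 60955403 in vehicle libraries. By these genes vehicle replicates 1 and 3 came from other animals than vehicle replicates 2 and 4. The labels do not say how many animals stand behind the libraries beyond that, so part of the spread behind the p-values may be technical.

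Of the 7 genes, 6 were higher on average under bexarotene and 1, Ciita, was lower. None passed an adjusted p of 0.05 over all rows in edgeR's quasi-likelihood test, against 0.00622% of all genes called higher. At an unadjusted p under 0.05, H2-Ab1, H2-DMb1 and Cd74 were higher, against 4.88% of all genes. Same-numbered libraries deviated together across genes, although the titles do not state that they are pairs. The clusters of odd-numbered and even-numbered replicates can alone give this, so the pairing is an assumption. Bexarotene exceeded the vehicle library of the same number in all 4 pairs for H2-Aa, H2-Ab1, H2-Eb1, Cd74 and H2-DMa. These are 5 of the 7 genes, against 10.6% of all genes. H2-DMb1 was higher in 3 of 4 pairs and Ciita in 1. With the replicate number as a block, 5 of the 7 (all but H2-DMa and Ciita) had an unadjusted p under 0.05, against 5.53% of all genes, and 0 passed the adjusted test. DESeq2 and edgeR's exact test also called 0 of the 7, against 0.337% and 0.193% of all genes called higher by those tools. They gave 5 and 4 of the 7 an unadjusted p under 0.05. The share of all genes at that unadjusted threshold was not computed for those tools, so these counts have no background. The median fold change of the 7, on the log2 scale, was 1.0, while that of all genes tested was 0.000916. In 0 of the 7 did every bexarotene library exceed every vehicle library, against 3.61% of all genes, and in 0 of the 7 was the reverse true, against 2.16%. In bulk tissue, a higher level per cell and more cells of a type cannot be told apart.

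**Figure D1:**
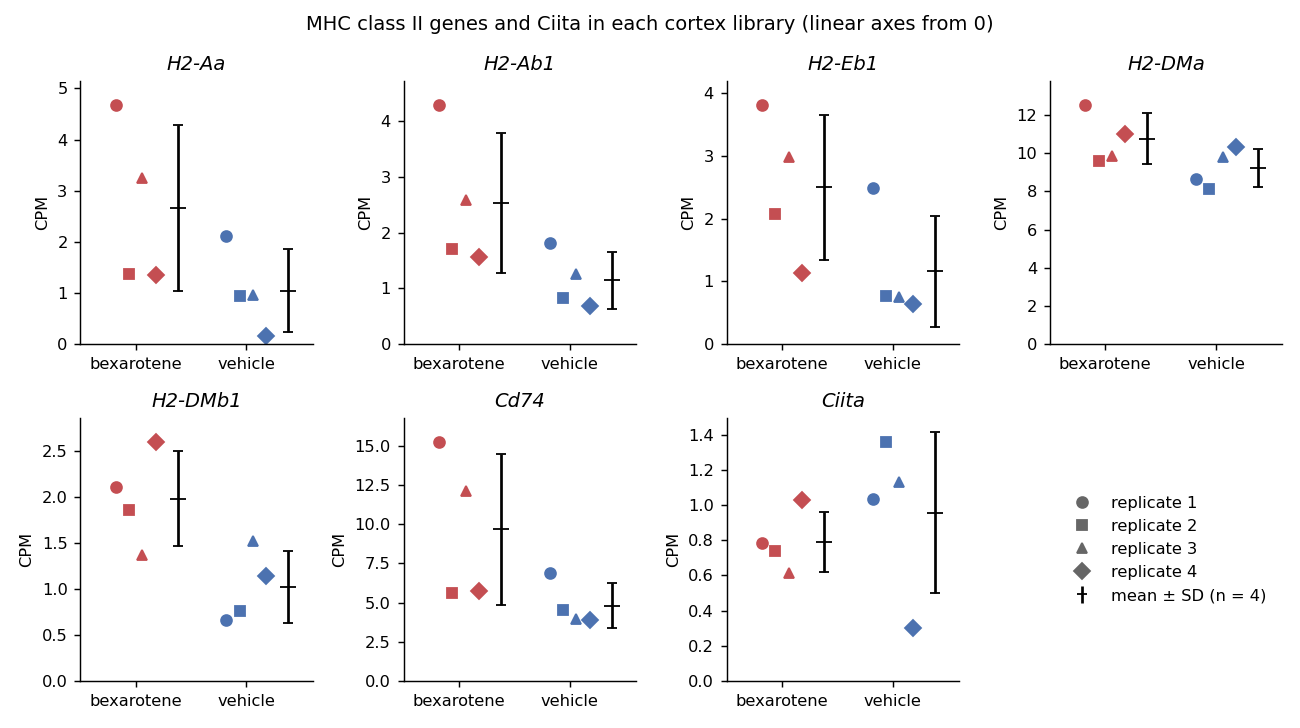
CPM of each gene in each library, bexarotene left of vehicle, with 1 marker shape per replicate number and the mean ± SD (n = 4) beside the points; axes are linear and start at 0. For H2-Aa, H2-Ab1, H2-Eb1 and Cd74 bexarotene replicates 1 and 3 stand above all other libraries, while H2-DMb1 has its highest value in bexarotene replicate 4 and Ciita does not follow the other genes.

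The antigen-presenting chains were low and shared one pattern. H2-Aa, the alpha chain of the I-A molecule (NM_010378), had 4.68, 1.37, 3.26 and 1.35 CPM in bexarotene replicates 1 to 4, against 2.12, 0.948, 0.968 and 0.151 CPM in vehicle replicates 1 to 4. Behind these values are 293, 102, 223 and 101 counts under bexarotene and 90, 55, 54 and 9 counts under vehicle. Bexarotene replicates 1 and 3 were the highest of all libraries, vehicle replicate 1 came next, and vehicle replicate 4 lay far below the rest. The H2-Aa mean was 2.66 ± 1.61 CPM for bexarotene and 1.05 ± 0.809 CPM for vehicle (SD, n = 4). The log2 fold change came to 1.36 ± 0.69 (SE; adjusted p = 0.632, edgeR's quasi-likelihood test). With the replicate block it was 1.54 ± 0.41 (unadjusted p = 0.00367, adjusted p = 0.336, edgeR). Permuting the 8 log2 CPM values exactly, without regard to the pairs, gave a two-sided p = 0.143, where 0.0286 is the smallest that 4 against 4 can give.

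H2-Ab1, the beta chain of I-A (NM_207105), had 4.29, 1.71, 2.58 and 1.56 CPM in the bexarotene libraries, against 1.81, 0.827, 1.26 and 0.687 CPM in the vehicle libraries. The 2 highest libraries were again bexarotene replicates 1 and 3, and vehicle replicate 1 exceeded bexarotene replicates 2 and 4, so the groups overlapped, although each bexarotene library exceeded its same-numbered vehicle library. The log2 fold change of H2-Ab1 was 1.15 ± 0.41 (edgeR unadjusted p = 0.0194, adjusted p = 0.506; 0.00173 and 0.286 with the replicate block), and the exact permutation p was 0.0857. H2-Eb1 (NM_010382), the beta chain of the I-E molecule, had 3.81, 2.08, 2.98 and 1.13 CPM under bexarotene, against 2.49, 0.775, 0.753 and 0.637 CPM under vehicle. Vehicle replicate 1 exceeded bexarotene replicates 2 and 4, and the other 3 vehicle libraries lay below every bexarotene library. For H2-Eb1 the log2 fold change was 1.11 ± 0.52 (edgeR unadjusted p = 0.0568, adjusted p = 0.593), and 1.79 without vehicle replicate 1. With the block it was 1.21 ± 0.32 (edgeR unadjusted p = 0.00385, adjusted p = 0.336).

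The partner of H2-Eb1 is the I-E alpha chain, whose gene is not functional in the C57BL/6 haplotype, so that these mice make no complete I-E molecule. It is listed as H2-Ea-ps and had 0 counts in all 8 libraries, which allows up to 3 counts in each library for counting error. The paralog H2-Eb2 had 13 counts in vehicle replicate 2, 1 count in bexarotene replicate 1 and 0 elsewhere, and did not pass the filter.

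Cd74, the invariant chain and chaperone of the class II chains (NM_001042605), had the highest count of the 4 genes that share this pattern. It stood at 15.3, 5.59, 12.1 and 5.72 CPM in the bexarotene libraries, against 6.89, 4.51, 3.94 and 3.89 CPM in the vehicle libraries. Bexarotene replicates 1 and 3 were again the highest, and vehicle replicate 1 exceeded bexarotene replicates 2 and 4. The Cd74 mean was 9.67 ± 4.81 CPM for bexarotene and 4.81 ± 1.42 CPM for vehicle (SD, n = 4). The fitted ratio of 2.01 (log2 SE 0.36) had p = 0.0195 unadjusted and p = 0.506 adjusted in edgeR's test, and the exact permutation p was 0.0857. With the replicate block, edgeR put Cd74 at an adjusted p = 0.295 (unadjusted p = 0.00196). A second Cd74 row (NM_010545) differed from the first by at most 26 counts in a library and had a log2 fold change of 0.99 ± 0.36, so the table does not resolve the isoforms.

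**Figure D2:**
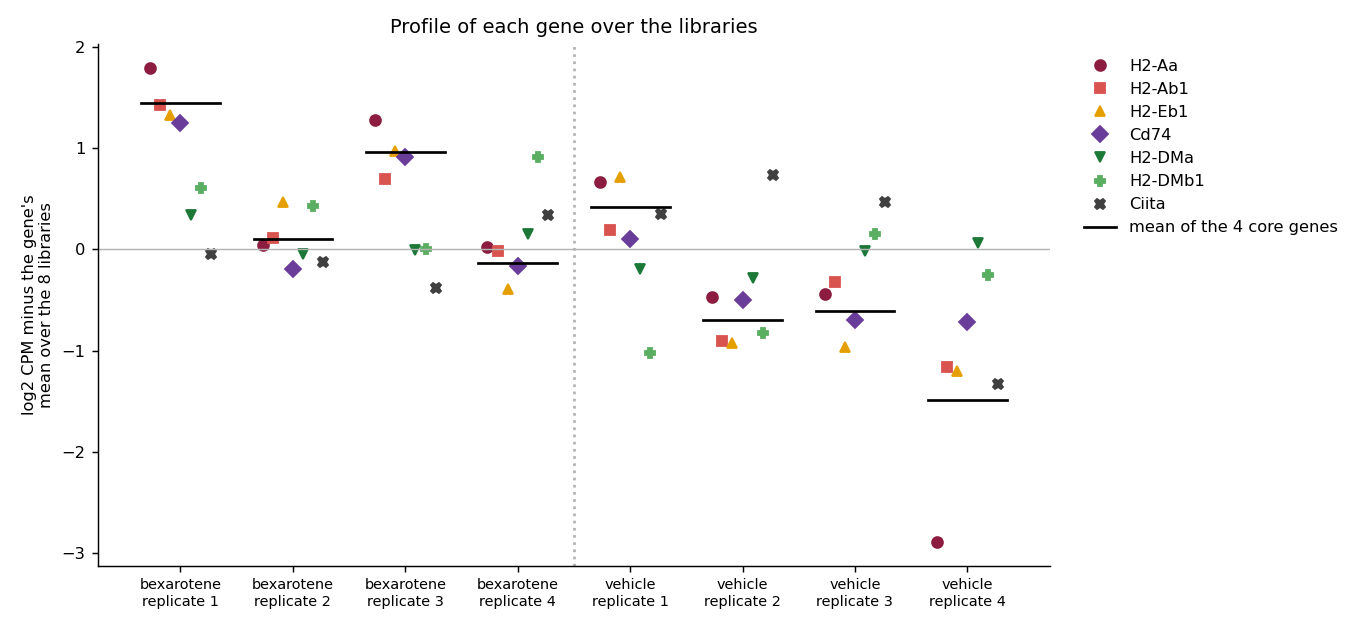
Log2 CPM of each gene minus its own mean over the 8 libraries, with bexarotene replicates 1 to 4 left of vehicle replicates 1 to 4; points are genes and black bars the mean of H2-Aa, H2-Ab1, H2-Eb1 and Cd74. The bars run highest in bexarotene replicates 1 and 3 (1.45 and 0.97) and lowest in vehicle replicate 4 (-1.49), and H2-DMa, H2-DMb1 and Ciita depart from them.

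The peptide editors followed another order of libraries. H2-DMa, the alpha chain of H2-DM (NM_010386), had 12.5, 9.61, 9.86 and 11.03 CPM under bexarotene, against 8.63, 8.15, 9.79 and 10.3 CPM under vehicle. The 2 highest libraries were bexarotene replicates 1 and 4, vehicle replicate 4 came next, and the whole spread was narrow. The log2 fold change of H2-DMa was 0.22 ± 0.13 (edgeR adjusted p = 0.691), and 0.14 without bexarotene replicate 1. H2-DMb1, a beta chain of H2-DM (NM_010387), had 2.11, 1.85, 1.37 and 2.60 CPM under bexarotene, against 0.658, 0.758, 1.52 and 1.14 CPM under vehicle. One vehicle library, replicate 3, exceeded one bexarotene library, replicate 3, and the groups were otherwise apart. The log2 fold change was 0.96 ± 0.34 (edgeR unadjusted p = 0.0187, adjusted p = 0.499), and the exact permutation p was 0.0571.

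H2-DMb2, a closely related beta chain gene beside H2-DMb1, had 0.527, 0.484, 0.511 and 0.560 CPM under bexarotene, against 0.259, 0.172, 0.126 and 0.285 CPM under vehicle. Each of the 4 bexarotene values exceeded each of the 4 vehicle values. The log2 fold change of H2-DMb2 was 1.30 ± 0.47 (edgeR adjusted p = 0.511). Reads shared by such near-identical genes may be split or dropped in counting, so the share of each in the H2-DM beta signal is uncertain. The subunits of H2-DO, a modulator of H2-DM that is best known from B cells, differed from each other. H2-Oa had a mean of 1.07 ± 0.498 CPM in bexarotene libraries and 1.06 ± 0.407 CPM in vehicle libraries (SD, n = 4), a log2 fold change of 0.01 ± 0.44. H2-Ob had a mean of 1.21 ± 0.30 CPM in bexarotene libraries and 0.783 ± 0.549 CPM in vehicle libraries, a log2 fold change of 0.63 ± 0.47.

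Ciita, the coactivator, was the least abundant of the 7 and had its own order of libraries. The row kept (NM_001243760) had 49, 55, 42 and 77 counts under bexarotene and 44, 79, 63 and 18 counts under vehicle. In CPM these were 0.782, 0.739, 0.613 and 1.027 under bexarotene, against 1.035, 1.36, 1.13 and 0.301 under vehicle. Vehicle replicates 1 to 3 exceeded every bexarotene library, replicate 1 by less than the worth of 1 count, and vehicle replicate 4 was the lowest library. Ciita had a log2 fold change of -0.27 ± 0.46 (edgeR adjusted p = 0.919) and an exact permutation p of 0.886. It was -0.57 without vehicle replicate 4 and -0.05 without vehicle replicate 2. In bexarotene replicates 1 and 3, where the class II chains were highest, Ciita was at -0.04 and -0.38 log2 units relative to its own mean over the libraries. Ciita is transcribed from alternative promoters used by different cell types, and the table has 3 rows for it. The counts of these rows were equal in 7 of the 8 libraries and differed by 4 counts in bexarotene replicate 2, so promoter use cannot be read from them. The difference in fold change between Ciita and the other genes was not tested.

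Because the libraries fell into the clusters described above, each fold change was recomputed within them. Within replicates 1 and 3 alone the log2 fold change was 1.38 for H2-Aa, 1.17 for H2-Ab1, 1.09 for H2-Eb1, 0.28 for H2-DMa and 0.66 for H2-DMb1. Within replicates 2 and 4 alone the values were 1.31, 1.11, 1.19, 0.16 and 1.23 in the same order. These genes kept the direction and, apart from the H2-DM chains, much the same size. The clusters were read from these same data, and each fit has 2 libraries per group. Within replicates 1 and 3, striatal markers still summed to 856 and 618 CPM under bexarotene, against 465 and 222 CPM under vehicle. Within replicates 2 and 4 the striatal sums of the groups overlapped. Cd74 stood at 1.35 ± 0.27 within replicates 1 and 3, where edgeR's test over those 4 libraries gave an adjusted p = 0.0487, and at 0.43 ± 0.22 within replicates 2 and 4 (adjusted p 0.905). In replicates 1 and 3 alone the test called 424 rows higher and 566 lower of 21368, so a call there is not rare. Ciita was at -0.63 ± 0.44 and 0.09 ± 0.79 in the same clusters. The difference between clusters was not tested.

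**Figure D3:**
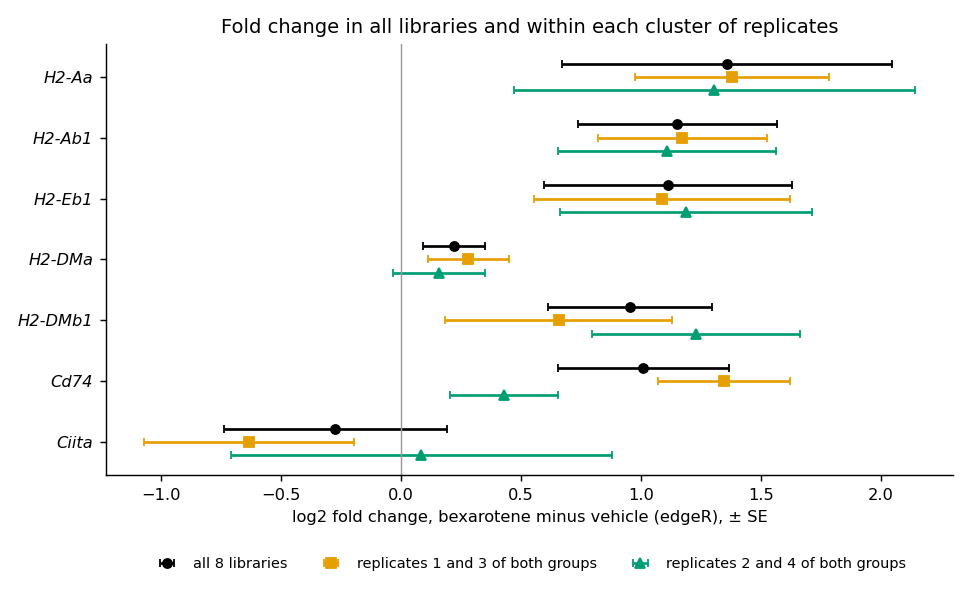
Log2 fold change (bexarotene minus vehicle) ± SE from edgeR for each gene, in all 8 libraries, in replicates 1 and 3 of both groups and in replicates 2 and 4 of both groups. H2-Aa, H2-Ab1 and H2-Eb1 lie above 1 in all 3 fits, Cd74 is at 1.35 in one cluster and 0.43 in the other, and Ciita lies on both sides of 0.

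Per kb of transcript, H2-DMa and Cd74 were the most abundant and Ciita the least. H2-DMa was at 6.49 ± 0.805 CPM per kb under bexarotene and 5.56 ± 0.609 under vehicle, and Cd74 at 6.86 ± 3.41 and 3.41 ± 1.004 (SD, n = 4 each). Under vehicle every library of H2-DMa (at least 4.91 CPM per kb) was above every library of Cd74 (at most 4.89), whereas under bexarotene the 2 genes overlapped. H2-Aa, H2-Ab1, H2-Eb1 and H2-DMb1 formed a lower tier, with means of 2.36, 2.09, 1.499 and 1.41 CPM per kb under bexarotene and 0.927, 0.945, 0.698 and 0.726 under vehicle. Neighbours within this tier overlapped in both groups. Ciita was at 0.187 ± 0.0409 CPM per kb under bexarotene and 0.226 ± 0.108 under vehicle, below every library of the other genes except H2-Aa in vehicle replicate 4 (0.134). Lengths are those of the matched GENCODE M21 transcripts, from 1128 nt for H2-Aa to 4237 nt for Ciita, and the annotation behind the counts may differ.

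**Figure D4:**
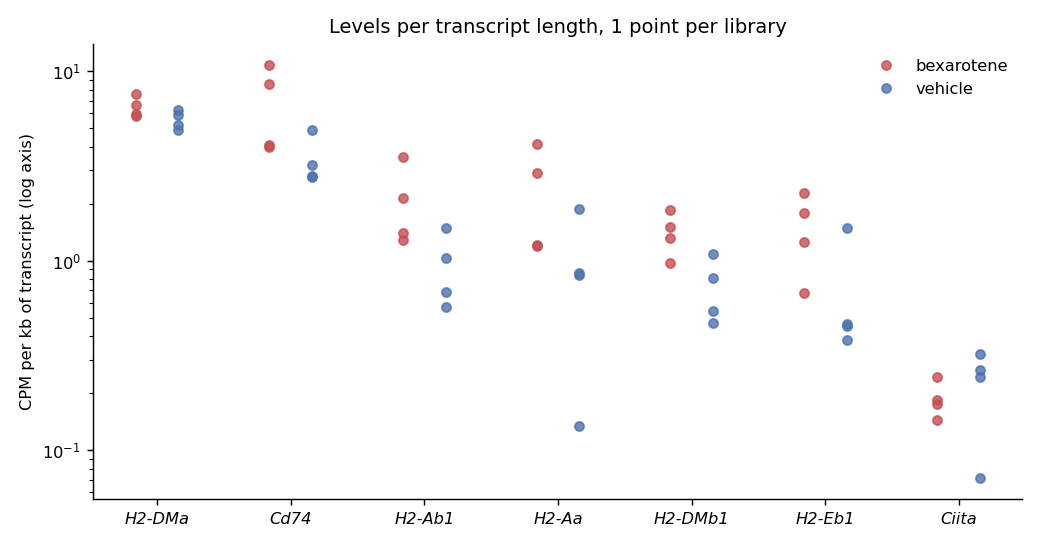
CPM per kb of transcript on a log axis, 1 point per library, bexarotene left of vehicle for each gene, with genes ordered by their vehicle mean. H2-DMa and Cd74 lie highest, the I-A and I-E chains and H2-DMb1 overlap one another in the middle, and Ciita lies lowest.

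H2-DMa, H2-DMb1, H2-Ab1, H2-Aa and H2-Eb1 follow one another on chromosome 17 in that order in RefSeq's GRCm38.p6 annotation, with other genes between some of them, whereas Ciita lies on chromosome 16 and Cd74 on chromosome 18. Likeness of profiles was measured as the root-mean-square difference, over the 8 libraries, from the mean profile of H2-Aa, H2-Ab1, H2-Eb1 and Cd74 in log2 CPM. It was 0.21 for H2-Ab1, 0.27 for H2-Eb1, 0.33 for Cd74 and 0.54 for H2-Aa, which are part of that mean. It was 0.84 for H2-DMa, 0.94 for H2-DMb1 and 0.97 for Ciita. This measure gave Cd74 a smaller difference than the H2-DM genes of chromosome 17. Cd74 is part of the mean and they are not, so its nearness is partly built in and the values do not compare them fairly.

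Of 13969 other genes with a mean of at least 1 CPM, the 5 most alike were Scube3 (0.27), Fam117a (0.33), Loxl1 (0.36), Psmb9 (0.37) and 1110017D15Rik (0.37). Scube3, a secreted signalling protein, had 4.84, 1.76, 3.08 and 1.57 CPM in the bexarotene libraries, against 3.13, 0.999, 1.77 and 0.553 CPM in the vehicle libraries. Loxl1 is an enzyme that crosslinks elastin, and Psmb9 is an immunoproteasome subunit encoded in the class II region itself. Psmb9 was at 2.98, 1.41, 2.12 and 1.93 CPM under bexarotene, against 1.79, 1.09, 1.22 and 0.687 CPM under vehicle, again highest in bexarotene replicates 1 and 3 and lowest in vehicle replicate 4. None of the 5 passed an adjusted p of 0.05 in edgeR's test.

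Among the factors that bind the X and Y boxes (Rfx5, Rfxank, Rfxap, Nfya, Nfyb, Nfyc and Creb1), 4 of 7 were higher and 3 lower (median log2 fold change 0.01), and 0 passed the adjusted test. Creb1 had a mean of 30.1 ± 1.88 CPM in bexarotene libraries and 37.7 ± 5.95 CPM in vehicle libraries (SD, n = 4), a log2 fold change of -0.32 ± 0.11 with an unadjusted p of 0.0179. Rfxank had a log2 fold change of 0.18 ± 0.09. Of the interferon gamma route to Ciita, Ifng itself had 1 count in each of 2 libraries and 0 in the other 6. Of its 8 measured members, 6 were higher and 2 lower (median 0.10) and 0 passed. Jak2, a kinase of the receptor, had a log2 fold change of -0.14 ± 0.11.

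The enzymes that prepare class II peptides were all higher on average. All 6 of Ctss, Ctsl, Ctsb, Ctsd, Lgmn and Ifi30 had a positive log2 fold change (0.23 to 0.66, median 0.33). All 6 had an unadjusted p under 0.05 in edgeR's test, against 4.88% of all genes higher at that threshold, and 0 passed the adjusted test. In 3 of them, Ctss, Ctsl and Ifi30, every bexarotene library exceeded every vehicle library, against 3.61% of all genes. Ctss, the protease that trims the invariant chain in antigen-presenting cells, had 122, 113, 106 and 148 CPM under bexarotene, against 66.6, 86.0, 104 and 87.2 CPM under vehicle, a log2 fold change of 0.51 ± 0.15 (edgeR adjusted p = 0.424). Ctsl, another invariant chain protease, had a log2 fold change of 0.25 ± 0.07. Of the class I genes, 9 of 9 were higher (median 0.44) and 0 passed, with B2m at 0.35 ± 0.10 and H2-D1 at 0.40 ± 0.11.

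Markers of cells that can carry class II were followed library by library. All 12 microglial markers were higher under bexarotene (median 0.36), with C1qa at 0.67 ± 0.14 and Tmem119 at 0.43 ± 0.11. In edgeR's test 9 of them had an unadjusted p under 0.05, against 4.88% of all genes higher at that threshold, and 0 passed the adjusted test. The microglial sum was 680, 601, 603 and 789 CPM under bexarotene, against 470, 485, 587 and 544 CPM under vehicle. The sum of H2-Aa, H2-Ab1, H2-Eb1 and Cd74 was 28.1, 10.8, 20.9 and 9.77 CPM, against 13.3, 7.06, 6.92 and 5.36 CPM. As a percentage of the microglial sum it was 4.12, 1.79, 3.47 and 1.24 under bexarotene, against 2.83, 1.46, 1.18 and 0.986 under vehicle. This percentage ran from 0.986 to 4.12 over the libraries, and the groups overlapped. The part of microglial abundance in the class II values was not tested. On the same scale H2-DMa stood at 1.84, 1.599, 1.63 and 1.398 percent under bexarotene, against 1.83, 1.68, 1.67 and 1.9 percent under vehicle, a narrow range with overlapping groups. H2-DMb1 stood at 0.310, 0.308, 0.228 and 0.330 percent under bexarotene, against 0.140, 0.157, 0.259 and 0.209 percent under vehicle. Apart from bexarotene replicate 3, every bexarotene library was above every vehicle library for H2-DMb1.

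Perivascular and meningeal macrophage markers summed to 5.91 to 10.9 CPM under bexarotene and 4.70 to 13.1 CPM under vehicle. Of these 7, 5 were higher and 2 lower and 0 passed, with Cd163 at a log2 fold change of 0.59 ± 0.35 and Lyve1 at -0.76 ± 0.52, and Ms4a7 was at 0 in 2 libraries. Dendritic cell markers summed to 9.89 to 16.2 CPM under bexarotene and 11.7 to 15.1 CPM under vehicle. Of 5 measured, 2 were higher and 3 lower and 0 passed, with Batf3 at 0.69 ± 0.47 and Zbtb46 at -0.19 ± 0.21, while Xcr1 was at 0 in 7 of the 8 libraries and Ccr7 in 6. B cell markers summed to at most 0.622 CPM under bexarotene and 1.17 CPM under vehicle. Only Cd79b of the 6 passed the filter (log2 fold change -0.67 ± 0.50), and Blk, a B cell kinase, was at 0 in 7 of the 8 libraries.

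Among 7 T cell markers, 2 passed the filter, Cd4 and Lck. The summed level of the list was 9.03, 2.08, 6.66 and 2.83 CPM under bexarotene, against 4.14, 1.52, 2.01 and 2.81 CPM under vehicle, with the same 3 highest libraries as the class II chains. Cd4, the coreceptor for class II, had 6.40, 0.887, 4.40 and 1.45 CPM under bexarotene, against 1.74, 0.844, 0.394 and 1.69 CPM under vehicle (log2 fold change 1.49 ± 0.68, adjusted p 0.593). Lck, its kinase, had a log2 fold change of 0.67 ± 0.46. Together Cd4 and Lck made up most of the summed level of the list in every library. The CD3 chains of the T cell receptor complex were near 0, with Cd3d at 0 in 7 of 8 libraries, Cd3g in 5 and Cd3e in 3. Monocyte and neutrophil markers summed to 0.854 to 3.64 CPM under bexarotene and 0.735 to 3.93 CPM under vehicle. The 2 of 6 that passed the filter, S100a8 and S100a9, were lower (log2 fold change -0.84 ± 1.03 and -0.11 ± 0.46) and did not pass.

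Markers of neighbouring tissue and of blood also differed between libraries. Striatal markers summed to 856, 200, 618 and 212 CPM under bexarotene, against 465, 176, 222 and 226 CPM under vehicle, with bexarotene replicates 1 and 3 and vehicle replicate 1 the 3 highest, as for the class II chains. All 7 were higher (median 0.82) and 0 passed, with Rgs9 at 1.22 ± 0.71 and Ppp1r1b at 0.82 ± 0.51. The 8 cortical neuron markers were all lower (median -0.22, 0 past the test), with Emx1 at -0.36 ± 0.37. Blood markers summed to 19.7, 5.42, 12.9 and 2.46 CPM under bexarotene, against 4.26, 7.87, 5.67 and 8.74 CPM under vehicle. They were highest in bexarotene replicates 1 and 3. Symbols with identical counts entered the sum once, which left 3 of the 5 symbols. All 5 symbols were higher (median 0.64, 0 passed), a count that includes the identical ones. Alas2 was at 0.64 ± 0.49 and Hbb-b1 at 0.75 ± 0.64. The part of striatal tissue, of blood and of the T cell markers in the class II values was not tested.

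Choroid plexus markers summed to 92.5, 1468, 80.5 and 230 CPM under bexarotene, against 22.2, 42.7, 27.9 and 40.7 CPM under vehicle. All 8 were higher (median 1.37) and 0 passed, with Ttr at 4.43 ± 1.23 and Clic6 at 1.49 ± 0.41. Every bexarotene library was above every vehicle library in the choroid plexus sum. The highest, bexarotene replicate 2, was among the lower bexarotene libraries for class II. The median log2 fold change of the 7 genes was 1.20 without that library, but the other bexarotene libraries still exceeded the vehicle libraries in this sum. The part of choroid plexus tissue in the class II values was not tested. Meningeal markers summed to 84.9 to 152 CPM under bexarotene and 54.7 to 184 CPM under vehicle (7 of 8 higher, median 0.20, 0 passed, Slc47a1 at 0.49 ± 0.37 and Col3a1 at 0.66 ± 0.65). Like the class II chains, they were lowest in vehicle replicate 4 but highest in vehicle replicate 1. Liver markers, all 6 higher (median 0.55, 0 passed, Apoa1 at 0.58 ± 0.97 and Ahsg at 0.82 ± 1.36), summed to 38.6 to 116 CPM under bexarotene and 0.776 to 117 CPM under vehicle.

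**Figure D5:**
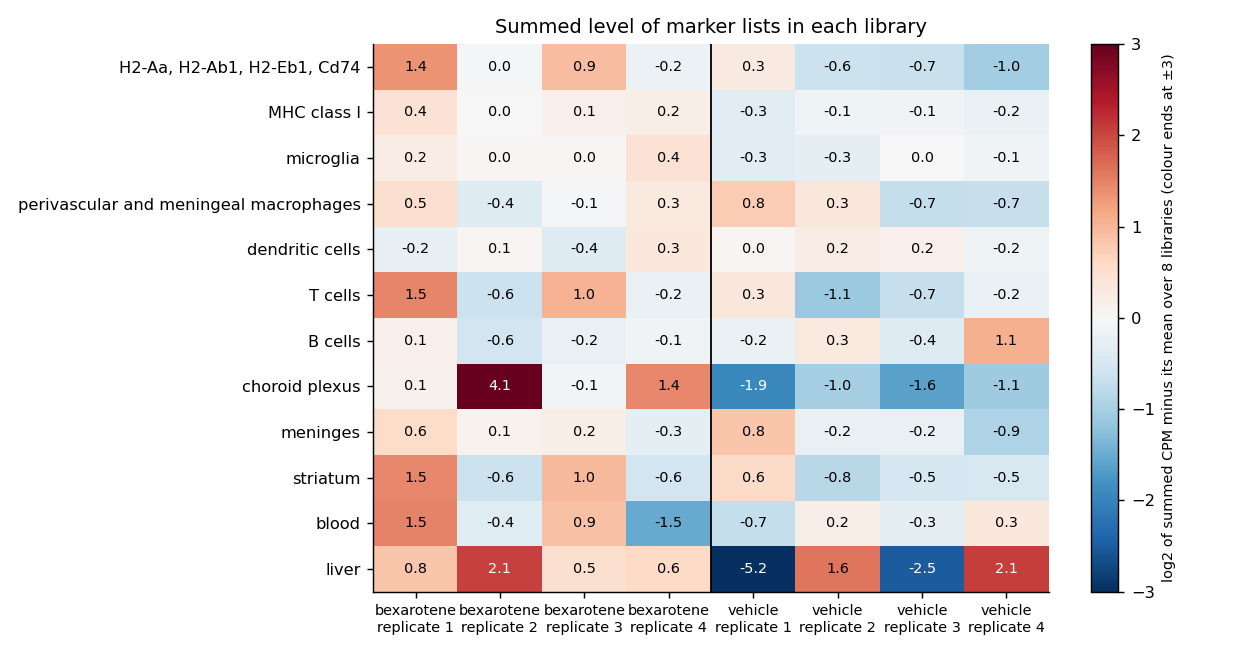
Log2 of the summed CPM of each marker list minus its mean over the 8 libraries (red above, blue below, colours end at 3 either way), with bexarotene replicates 1 to 4 left of vehicle replicates 1 to 4. The class II row is highest in bexarotene replicates 1 and 3 (1.35 and 0.93), as are the T cell, striatum and blood rows, while microglia vary less, between -0.32 and 0.43.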

How the data were processed

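Cortical RNA went into stranded mRNA libraries, per the labels' protocols. The deposited table holds raw counts of reads for each RefSeq transcript, whole numbers with unequal column totals. Build mm9 and edgeR are named by the submitters' processing notes. The aligner, the counting program and its strand setting, and the annotation used are not stated by the labels or the file header, so overlapping genes on opposite strands may share reads.

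The 28644 rows were filtered with edgeR's default rule (21285 rows kept, 16069 symbols), scaled by TMM and tested by quasi-likelihood (edgeR 4.0.16 under R 4.3.3), using all 8 libraries and a group term alone. P-values were adjusted by Benjamini-Hochberg over all rows kept. SEs were derived from F, and log2 CPM used a prior count of 2. Alternatives used DESeq2 1.42.0, limma 3.58.1 and the settings in the closing section. The 7 genes and the lists were chosen with earlier results of these data known. Named list members are those past the threshold or else the 2 with the smallest p; the names that complete a list, and any other gene, were added after values were seen. Columns of values left unused numbered 0. Some list members are not reported here.

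The titles number replicates 1 to 4 in each group. Correlating same-numbered libraries across genes, after subtracting group means, gave r of 0.435, 0.285, 0.149 and 0.17, all over 0.1. The blocked fit treats the numbers as pairs on this ground. Correlations between libraries of different number were not set beside these. The clustering of odd-numbered replicates of both groups opposite the even-numbered ones can alone make same-numbered libraries correlate. The pairing is therefore an assumption. Limits from counts cover counting error only.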

Additional observations from a re-analysis of the deposited data

Results flagged for a closer look

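A library was picked out where its gap to the nearest other library of its group exceeded, as a share of the group's range, Dixon's critical value for 4 samples. This was tested in 146 groups of 4 libraries and 10 were picked out; chance picks about 1 in 20. Among the class II genes this held for H2-Eb1 in vehicle replicate 1, at 2.49 CPM against 0.637 to 0.775 CPM in the other vehicle libraries. H2-Ob stood at 1.59 CPM in vehicle replicate 3, against 0.448 to 0.635 CPM.

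Bexarotene replicate 2 stood apart in the choroid plexus sum (1468 CPM, the others 80.5 to 230), in Ttr (1397 CPM, the others 58.7 to 213), in the liver sum (116 CPM, the others 38.6 to 49.8) and in Apoa1 (13.9 CPM, the others 4.82 to 6.05). Vehicle replicate 1 stood apart in the sum of cortical excitatory neuron markers (1525 CPM, the others 1806 to 1862) and in Col3a1 (3.08 CPM, the others 0.574 to 0.930). Cd9 was at 34.9 CPM in bexarotene replicate 3 (the others 42.5 to 43.1), and S100a9 at 0.269 CPM in vehicle replicate 3 (the others 0.569 to 0.620).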

How the results depend on the processing

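Each fold change was recomputed under 22 alternatives, save that Ciita did not pass a filter at a mean of 1 CPM: 151 of 153 values kept the direction and stayed above an adjusted p of 0.05. The exceptions were Cd74 in replicates 1 and 3 alone (1.35, so that 1 of the 7 genes was called there) and Ciita in replicates 2 and 4 alone (0.086, reversed). With the replicate block 0 of the 7 were called, as without it, the median log2 fold change was 0.998 and 5 had an unadjusted p under 0.05, against 3 without it. With a transcript length offset (97.6% of rows had a length) the median was 0.89, and 0.90 with the offset and the block. When libraries were left out one at a time, values ran from 0.94 to 1.95 for H2-Aa, 0.77 to 1.46 for H2-Ab1, 0.84 to 1.79 for H2-Eb1, 0.14 to 0.29 for H2-DMa, 0.80 to 1.21 for H2-DMb1, 0.70 to 1.23 for Cd74 and -0.57 to -0.05 for Ciita; the number called was 0 each time. Without bexarotene replicate 1 or vehicle replicate 4, 1 of the 7 had an unadjusted p under 0.05, and 5 without vehicle replicate 1. The share of all genes at that threshold was not computed for these fits. Ciita and H2-Aa in vehicle replicate 4 rest on 18 and 9 counts, so their levels there are imprecise.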

Other observations

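Genes that set how long class II stays at the surface showed no shared direction. March1, the ubiquitin ligase that sends class II for degradation, had a mean of 20.7 ± 3.29 CPM in bexarotene libraries and 24.5 ± 3.99 CPM in vehicle libraries (SD, n = 4), a log2 fold change of -0.24 ± 0.14 (edgeR adjusted p = 0.691). The tetraspanin Cd9 had 0.18 ± 0.11. Of this list of 4 measured genes, 2 were higher and 2 lower (median 0.04) and 0 passed. All 6 costimulatory and adhesion genes were higher on average (median 0.32), none past the adjusted test. Icam1, an adhesion molecule that binds T cells, had 5.81, 3.13, 4.43 and 3.87 CPM under bexarotene, against 1.36, 2.74, 3.28 and 3.22 CPM under vehicle. The log2 fold change of Icam1 was 0.70 ± 0.29 (edgeR adjusted p = 0.562), and vehicle replicates 3 and 4 exceeded bexarotene replicate 2. Cd274, the checkpoint ligand PD-L1, had a log2 fold change of 0.43 ± 0.27.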
